A study of Mus musculus with 30 samples.

Results

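Transcript counts were examined for 30 genes of fatty acid uptake and beta-oxidation in mouse heart. The genes were chosen by name, from uptake at the cell surface to electron transfer out of the mitochondrial cycle, and their rows were found through the Ensembl identifiers. All 30 had 1 row each among the 78258 genes of the postpartum table and among the 56691 genes of the diet table. The study compared hearts of wild-type (WT) mice with hearts of mice carrying the p.S55L mutation of CHCHD10, a small protein of the mitochondrial intermembrane space whose mutation is used as a model of mitochondrial cardiomyopathy. Naive mice were aged to 100 days, and postpartum (PP) mice were mated at an age of 65 days, with hearts taken on postpartum day 0. In a second experiment S55L mice ate either a control feed or one containing EH301, a supplement of nicotinamide riboside and pterostilbene, during breeding, with hearts again taken at postpartum day 0. RNA of the heart was read by 3′-end sequencing, in which each transcript gives reads near its poly(A) tail.

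Long-chain fatty acids are the main fuel of the adult heart. They are released from circulating lipoproteins, carried into the cardiomyocyte, joined to coenzyme A and passed into mitochondria by the carnitine shuttle. There the beta-oxidation cycle shortens the chain step by step through dehydrogenation, hydration, a further dehydrogenation and thiolysis, and hands electrons to the respiratory chain, while peroxisomes run a parallel pathway.

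The postpartum table held 5 WT naive and 5 S55L naive libraries, and 4 distinct libraries each of WT PP and S55L PP, because PP libraries 1 and 2 of either genotype held identical counts for all 78258 genes and were counted as 1 sample. In the diet table, control library 5 and EH301 library 6 were identical over all 56691 genes and both were left out, which left 4 libraries per diet. Reads on genes ranged from 1418715 to 5131316 per library in the postpartum table and from 466651 to 3048461 in the diet table. The 30 genes took 2.28 to 2.68% of these reads in WT naive hearts, 2.06 to 2.48% in WT PP hearts, 1.36 to 1.76% in S55L naive hearts and 1.43 to 1.73% in S55L PP hearts. Genotype ran along with library properties: 58.3 to 61.6% of WT reads and 66.3 to 69.2% of S55L reads fell on genes, mitochondrially encoded genes took 16.8 to 24.6% of WT and 9.52 to 15.5% of S55L reads on genes, and 24.7 to 27.3% of WT and 17.5 to 21.2% of S55L reads mapped to several places. With the mitochondrially encoded genes removed, the counts of called genes of the set given below were the same. The column names hold a code of a letter and a number whose meaning the labels do not give. Its number was 1 for every WT library but WT PP 1, which had 2, and it was 2 or 3 for every S55L library. Its letter was A for WT naive 1, WT PP 1 and S55L PP 1, which stood apart from the rest of their groups in the same way for Acads, Hadha and Hadh. Whether each library was made from its own mouse is not in the labels, and p-values reflect the spread among libraries, which may be technical. Counts cannot show a point mutation, and the genotype labels were not checked through the mutated gene.

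Cardiomyocyte transcripts identified the tissue, with summed levels of 10 markers (Myh6, Actc1, Tnnt2, Tnni3, Myl2, Myl3, Ryr2, Pln, Atp2a2, Mb) of 79120 to 107400 CPM in WT naive and 79420 to 103300 CPM in WT PP hearts. CPM are counts per 1000000 counts of the library size after TMM scaling. The same sums were 46790 to 64150 CPM in S55L naive and 40390 to 52060 CPM in S55L PP hearts, and 9 of the 10 markers were called lower in S55L hearts (adjusted p below 0.05, edgeR) in either state, all but Actc1. Their median log2 difference was -1.02 in naive and -1.17 in PP hearts. Macrophage markers moved the other way, with all 7 called higher in S55L hearts in both states and sums of 146 to 189 CPM in WT naive, 197 to 314 CPM in WT PP, 633 to 918 CPM in S55L naive and 653 to 927 CPM in S55L PP hearts. Of 8 endothelial markers, 4 were called lower in naive and 3 in PP hearts, where 21.6% and 15.2% of all genes were called lower, with sums of 818 to 963 and 858 to 971 CPM in WT naive and PP hearts and 560 to 761 and 527 to 745 CPM in S55L naive and PP hearts. Of 6 fibroblast markers, 3 and 4 were called higher, against 21.9% and 16.3% of all genes. Adipocyte markers summed to at most 10.1 CPM in any library of the table, with Ucp1 at 0 in all of them. The part of these shifts in the values below was not tested, and in whole-heart RNA fewer cells of a type and less RNA per cell cannot be told apart.

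Most genes of the set had lower scaled counts in S55L than in WT hearts, in naive and in postpartum mice alike. In naive hearts 20 of the 28 genes that passed the filter on low counts were lower in S55L than in WT and 1, Cpt1a, was higher. Among all 11945 genes tested, 43.5% were called in this comparison, 21.6% lower and 21.9% higher. In PP hearts 20 of the 28 were again lower and 2, Cpt1a and Acsl5, were higher, against 31.5% of all genes called, 15.2% lower and 16.3% higher. A gene was called where its adjusted p was below 0.05 in edgeR's quasi-likelihood test with Benjamini-Hochberg adjustment over all genes tested. The median log2 difference over the 28 genes was -0.79 in naive hearts (interquartile range -1.06 to -0.29) and -0.61 in PP hearts, where all genes tested had medians of 0.00 in both. The 10 cardiomyocyte markers had medians of -1.02 in naive and -1.17 in PP hearts, and their part in these values was not tested. At least a 2-fold lower level was fitted for 10 of the 28 in naive and for 7 in PP hearts.

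The genotype comparisons in naive and PP hearts used no library in common. All 28 genes had the same sign of difference in both, 19 were called lower in both and 1 higher in both. In the reported fit Acads was called in naive hearts alone, and Acsl5 and Hadh in PP hearts alone. With the replicate block Acads was called in PP hearts too (-1.235, adjusted p 0.00937 by edgeR). Some alternatives without a block also called Acads in PP or Hadh in naive hearts. With limma voom these stood at -1.52 (adjusted p 0.00358) and -0.352 (adjusted p 0.00983). The tests of the genotype-by-state term given below called none of Acads, Acsl5 and Hadh. Fabp3, Slc27a4, Acsl3, Acadl and Acaa1a were called in neither in the reported fit, and Fabp3 and Acaa1a passed under some of the alternatives given below. Every S55L library lay below every WT library for 20 of the 28 genes in naive hearts, where 15.4% of all genes did so, and for 16 of 28 in PP hearts, where 11.7% did so. The reverse, every S55L library above every WT library, held for 0 of the 28 in naive hearts, against 16.8% of all genes, and for 1, Cpt1a, in PP hearts, against 13.7%.

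**Figure D1:**
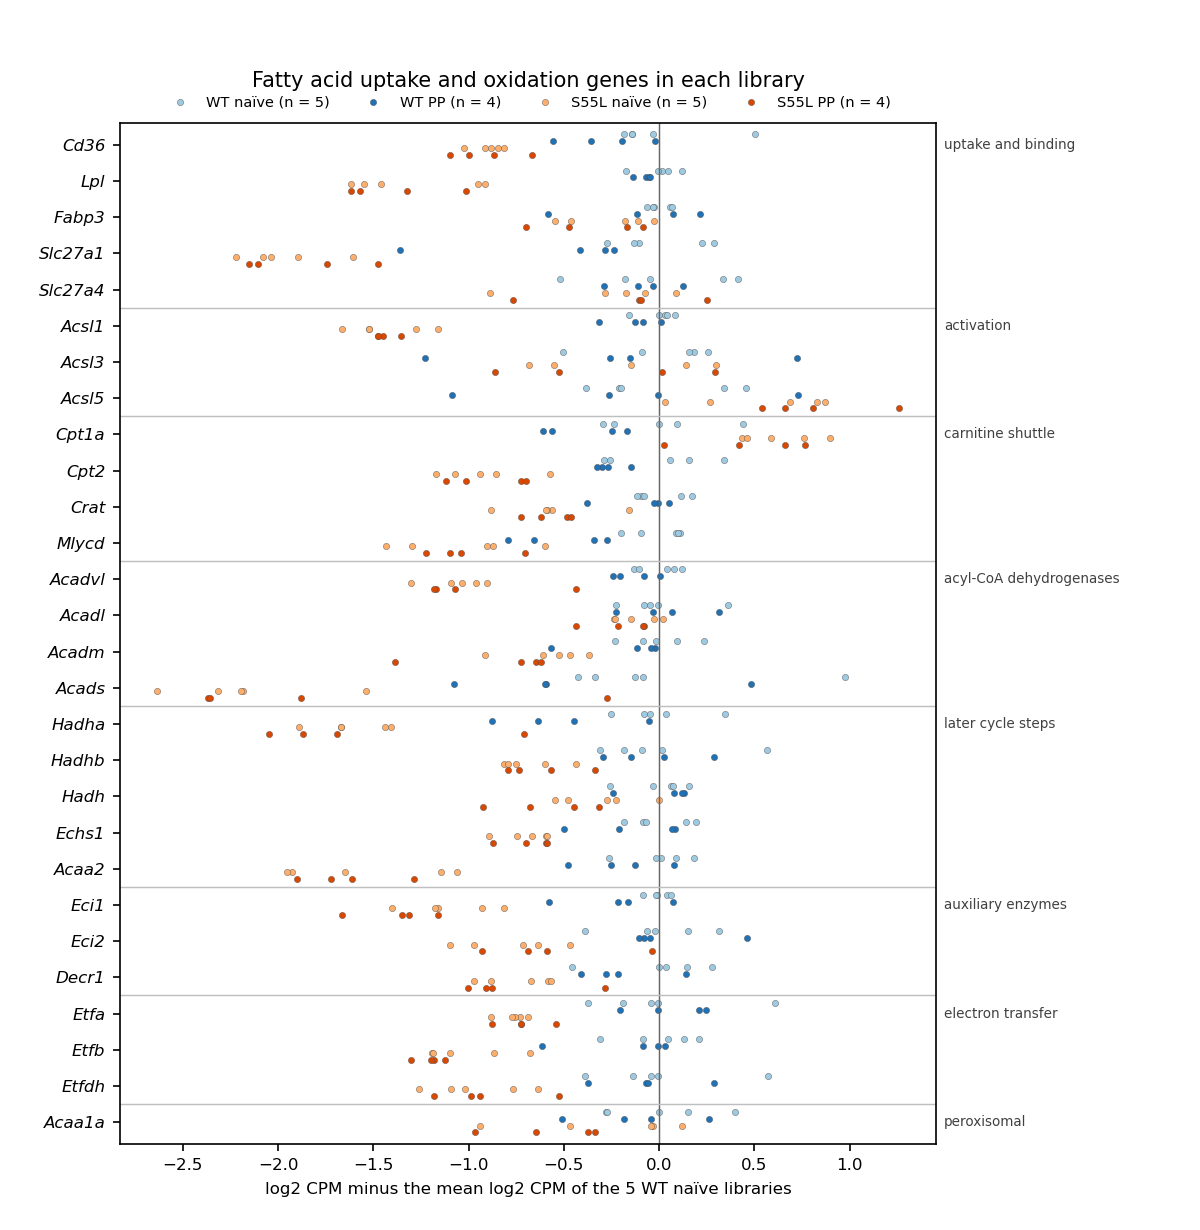
Level of the 28 tested genes in each library of the postpartum table, as log2 CPM minus the WT naive mean, with genes grouped by step along one axis and one point per library coloured by group. Points of the 2 S55L groups lie below the WT points for most genes of the mitochondrial cycle, overlap them for Fabp3, Slc27a4, Acsl3, Acadl and Acaa1a, and lie above most of them for Cpt1a.

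**Figure D2:**
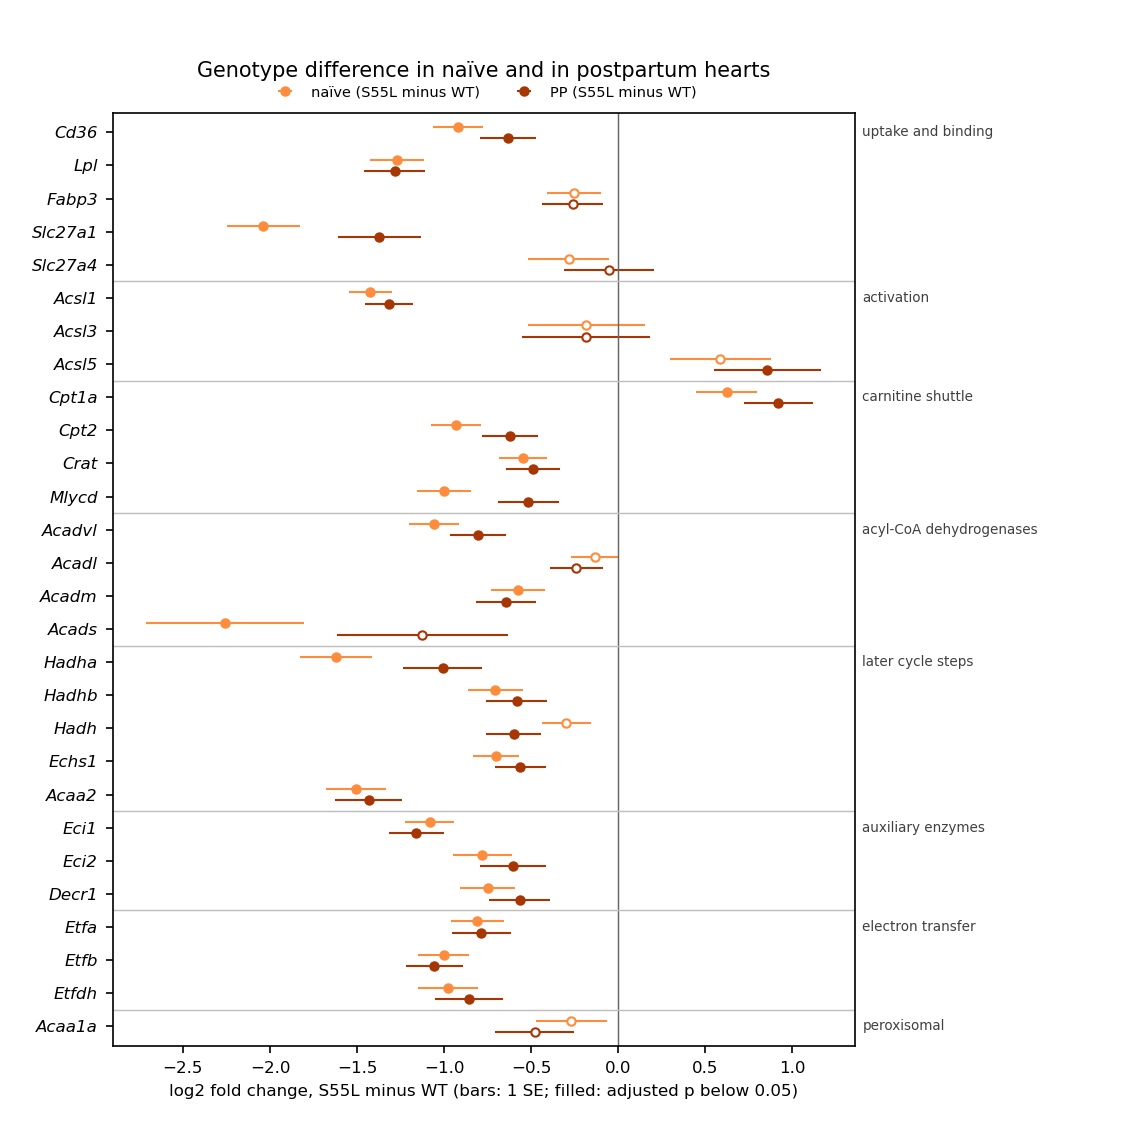
Fitted log2 difference (S55L minus WT) of each of the 28 genes in naive and in PP hearts, with bars of 1 standard error and filled points for genes called at an adjusted p below 0.05. Most filled points lie left of 0, between -0.49 and -2.26, and only Cpt1a (both states) and Acsl5 (PP) are filled to the right of 0.

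At the uptake step, transcripts of the lipase, the scavenger receptor and 1 of the 2 transport proteins were lower, and that of the binding protein was not called. Lpl encodes lipoprotein lipase, which frees fatty acids from triglyceride-rich particles at the capillary wall. It was read at 8384, 9795, 9551, 9417 and 10286 CPM in the 5 WT naive hearts and at 3235, 3089, 3439, 5024 and 4895 CPM in the 5 S55L naive hearts. In PP hearts it stood at 9024, 9138, 8608 and 9158 CPM in WT and at 3087, 3777, 4695 and 3192 CPM in S55L libraries. Every S55L value lay below every WT value in both states. The log2 difference was -1.27 (SE 0.16, adjusted p 2.73e-07) in naive and -1.28 (SE 0.17, adjusted p 2.06e-06) in PP hearts. Beside it, Gpihbp1, the endothelial anchor of the lipase, fell by 0.83 in naive and by 0.62 in PP hearts on the log2 scale, and Vldlr, a lipoprotein receptor of muscle and heart, fell by 1.33 and by 0.90.

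Cd36, the fatty acid translocase of the plasma membrane, measured 835, 575, 533, 532 and 517.04 CPM in WT naive and 318.6, 312, 289, 327 and 334 CPM in S55L naive hearts. The groups did not overlap, and WT naive 1 was well above the other 4 WT libraries. The log2 difference was -0.92 (SE 0.14, adjusted p 1.03e-05). In PP hearts the values were 513, 399.7, 459.6 and 579.9 CPM in WT and 370.3, 322, 275 and 294 CPM in S55L, a log2 difference of -0.63 (SE 0.16, adjusted p 0.0034), again without overlap.

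Slc27a1 (FATP1), a transport protein with acyl-CoA synthetase activity, showed the second-largest fall after Acads in naive hearts. Its values were 43.3, 34.3, 30.4, 45.3 and 33.6 CPM in WT naive and 11.7, 9.47, 8.25, 8.53 and 7.41 CPM in S55L naive hearts, a log2 difference of -2.04 (SE 0.21, adjusted p 1.25e-08). In PP hearts they were 27.6, 31.3, 30.2 and 13.99 CPM in WT and 12.9, 8.09, 7.81 and 10.6 CPM in S55L (log2 difference -1.37, SE 0.24, adjusted p 6.13e-05). No S55L library reached a WT library in either state, although WT PP 5 came close to S55L PP 1. Its relative Slc27a4 (FATP4) was not called, with log2 differences of -0.28 (SE 0.23) and -0.05 (SE 0.26), nor was Fabp3, the cytosolic fatty acid binding protein of heart, with -0.25 (SE 0.16) and -0.26 (SE 0.17). Without the letter A libraries Fabp3 passed as lower in PP hearts (-0.505, SE 0.166, adjusted p 0.0218 by edgeR). With limma voom it passed as lower in naive hearts (-0.323, SE 0.118, adjusted p 0.0239).

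The genes of activation to acyl-CoA were split by isoform. Acsl1, the long-chain acyl-CoA synthetase known to supply beta-oxidation in the heart, had the lowest adjusted p of the set in both comparisons. Its values were 824, 794, 799.6, 777 and 696 CPM in WT naive and 270.0, 244, 269.6, 347 and 319.9 CPM in S55L naive hearts. Among PP hearts they were 733, 713, 781 and 625 CPM in WT and 303, 279, 284 and 278 CPM in S55L. The S55L libraries formed a tight band far below the WT libraries in both states. The log2 difference was -1.42 (SE 0.12, adjusted p 8.14e-10) in naive and -1.32 (SE 0.14, adjusted p 3.85e-08) in PP hearts.

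Acsl5, a synthetase of the outer mitochondrial membrane and endoplasmic reticulum, went the other way at a low level. It was read at 5.44, 2.79, 6.64 and 11.5 CPM in WT PP and at 10.9, 12.1, 9.96 and 16.8 CPM in S55L PP hearts. The groups overlapped through WT PP 5, and the log2 difference of 0.86 (SE 0.31) passed with an adjusted p of 0.035. This call was lost on leaving out WT PP 1 (0.75), WT PP 3 (0.64), WT PP 4 (0.85), S55L PP 3 (0.87) or S55L PP 5 (0.69). In naive hearts the difference was 0.59 (SE 0.29, adjusted p 0.10). Acsl3, a synthetase linked to lipid droplets, was not called (-0.18 in both, SE 0.34 and 0.37). Of the other synthetases in the wider list, Acsl6 fell by 1.60 in naive and 1.44 in PP hearts and Acsl4 rose by 1.20 in naive and 1.03 in PP hearts on the log2 scale.

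At the carnitine shuttle, the transcripts of Cpt1a and Cpt2 went in opposite directions, and the muscle isoform Cpt1b could not be measured. Cpt1a is the liver-type isoform of carnitine palmitoyltransferase 1, the outer-membrane enzyme that commits acyl groups to the mitochondrion and is blocked by malonyl-CoA. It measured 25.2, 20.4, 26.9, 34.4 and 21.3 CPM in WT naive and 38.15, 47.5, 34.3, 34.97 and 43.2 CPM in S55L naive hearts. The lowest S55L library lay just under the highest WT library. In PP hearts the values were 16.3, 22.3, 21.1 and 16.9 CPM in WT and 25.7, 40.2, 33.9 and 43.3 CPM in S55L, and the groups did not overlap. The log2 difference was 0.62 (SE 0.17, adjusted p 0.0048) in naive and 0.92 (SE 0.20, adjusted p 0.00071) in PP hearts.

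Cpt2, the inner-membrane transferase that rebuilds acyl-CoA in the matrix, was lower, with log2 differences of -0.93 (SE 0.15, adjusted p 9.39e-06) and -0.62 (SE 0.16, adjusted p 0.0040). Means were 127 ± 21.1 CPM (SD, n = 5) in S55L naive against 243 ± 45.6 CPM (SD, n = 5) in WT naive hearts. The log2 ratio of Cpt1a to Cpt2 within a library, a quantity chosen after its values were seen and given without a test, averaged -3.25 ± 0.44 (SD, n = 5) in WT naive and -1.68 ± 0.31 (SD, n = 5) in S55L naive hearts. In PP hearts it averaged -3.40 ± 0.19 (SD, n = 4) in WT and -1.88 ± 0.42 (SD, n = 4) in S55L, and the genotypes did not overlap in either state. Slc25a20, the carrier that exchanges acylcarnitine for carnitine across the inner membrane, fell by 1.03 in naive and by 0.78 in PP hearts on the log2 scale. Crat, the acetyltransferase that exports acetyl groups as acetylcarnitine, fell by 0.55 (SE 0.14, adjusted p 0.0021) and by 0.49 (SE 0.15, adjusted p 0.015), and its PP call was lost without S55L PP 3 (-0.44).

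Cpt1b, the muscle isoform, could not be measured. It had 1 read in WT naive 1 and none in the other 17 libraries of the postpartum table or in the diet table. In the GENCODE M21 annotation the gene Gm44502, on the same strand, covers 81.4% of its exon bases, and Gm44502 also had 0 counts. Counting by gene can leave out reads that fall in 2 genes, and whether this happened here was not tested. The value was not read as the level of Cpt1b in these hearts.

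Mlycd, malonyl-CoA decarboxylase, removes the inhibitor of the shuttle. It was read at 158, 156, 157, 137 and 128 CPM in WT naive and at 54.0, 59.3, 78.04, 79.9 and 96.6 CPM in S55L naive hearts, without overlap (log2 difference -1.001, SE 0.16, adjusted p 9.29e-06). In PP hearts the values were 116, 84.3, 93.01 and 121 CPM in WT and 62.3, 68.1, 71.1 and 89.8 CPM in S55L. The groups overlapped there, and the difference was -0.51 (SE 0.17, adjusted p 0.025), which did not pass without WT PP 1 (-0.45), WT PP 5 (-0.43), S55L PP 1 (-0.45), S55L PP 3 (-0.48) or S55L PP 4 (-0.50). The acetyl-CoA carboxylases, which make malonyl-CoA, diverged: Acacb, the mitochondrial-surface form, fell by 1.28 and by 1.14, and Acaca, the cytosolic form, named after its values were seen, rose by 0.74 and by 0.80 on the log2 scale in naive and PP hearts.

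The acyl-CoA dehydrogenases open the cycle and differ in the chain length they take. Acadvl (very long chains) was lower by -1.06 (SE 0.14, adjusted p 1.22e-06) in naive and -0.81 (SE 0.16, adjusted p 0.00029) in PP hearts. Acadl (long chains) was not called in either state, with -0.13 (SE 0.14) and -0.24 (SE 0.15). Acadm (medium chains) measured 1005, 847, 727, 913 and 807.5 CPM in WT naive and 617.5, 594, 454, 663 and 560.0 CPM in S55L naive hearts, and 844, 788, 831 and 577 CPM in WT PP and 517.3, 546, 557 and 326 CPM in S55L PP hearts. All S55L libraries lay below all WT libraries of the same state, with differences of -0.57 (SE 0.15, adjusted p 0.0037) and -0.64 (SE 0.17, adjusted p 0.0052).

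Acads (short chains) had the widest spread. It was read at 236, 94.7, 113, 88.9 and 109.8 CPM in WT naive and at 25.9, 25.7, 40.8, 23.6 and 18.75 CPM in S55L naive hearts. The PP values were 168, 56.4, 79.1 and 78.9 CPM in WT and 99.2, 22.7, 22.9 and 32.1 CPM in S55L. The 3 high values, in WT naive 1, WT PP 1 and S55L PP 1, were those of code letter A, and with S55L PP 1 the PP groups overlapped. The log2 difference was -2.26 (SE 0.45, adjusted p 0.00094) in naive hearts and -1.13 (SE 0.49, adjusted p 0.095) in PP hearts. With the replicate number as a block the PP difference was -1.24 (SE 0.32) and passed with an adjusted p of 0.00937. Without S55L PP 1 it was -1.90 (adjusted p 0.0020), without WT PP 1 it was -0.70 (adjusted p 0.34), and without all 3 letter A libraries it was -1.485 (SE 0.22, adjusted p 1.19e-05) in PP and -1.915 (SE 0.18, adjusted p 3.36e-09) in naive hearts.

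**Figure D3:**
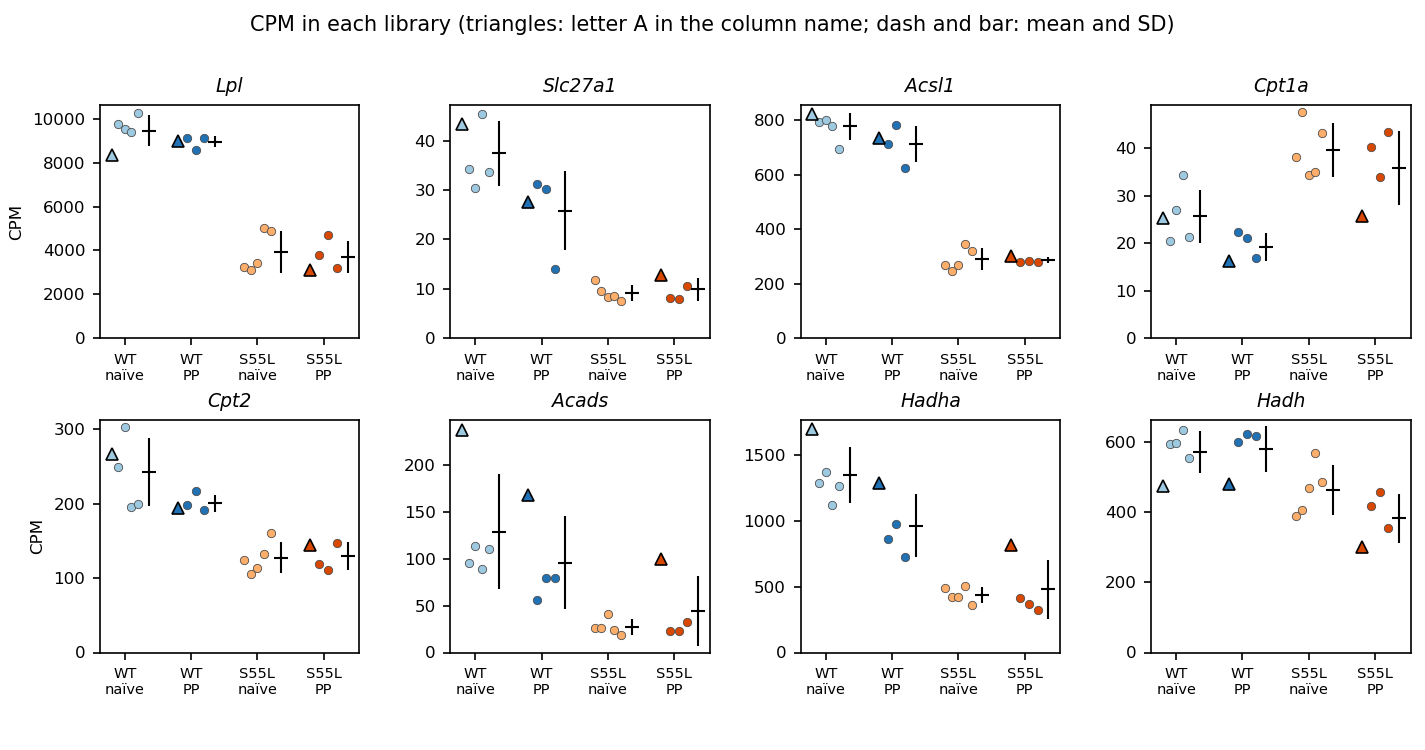
Level in CPM by library and group for Lpl, Slc27a1, Acsl1, Cpt1a, Cpt2, Acads, Hadha and Hadh, with the mean and SD of each group and triangles for the libraries of code letter A. Lpl, Slc27a1 and Acsl1 show separate S55L and WT bands, Cpt1a shows the reverse order, and the triangles of Acads and Hadha lie above the other libraries of their groups while those of Hadh lie below.

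Of the 5 genes of the later steps, 4 were lower in naive and all 5 in PP hearts, with the largest differences at Hadha and Acaa2. Hadha, the alpha subunit of the trifunctional protein with its hydratase and dehydrogenase activities, measured 1694, 1287, 1366, 1116 and 1260 CPM in WT naive and 491, 419, 417, 503 and 359 CPM in S55L naive hearts. It measured 1284, 858, 975 and 725 CPM in WT PP and 814, 412, 365 and 321 CPM in S55L PP hearts. The naive groups were far apart, and the PP groups overlapped because S55L PP 1 lay above WT PP 5. The difference was -1.62 (SE 0.21, adjusted p 7.23e-07) in naive and -1.01 (SE 0.23, adjusted p 0.0013) in PP hearts, and without the letter A libraries the PP difference was -1.23 (SE 0.16, adjusted p 1.04e-06).

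Hadhb, the beta subunit with the thiolase, was lower by -0.71 (SE 0.16, adjusted p 0.00070) and -0.58 (SE 0.18, adjusted p 0.012). The within-library log2 ratio of Hadha to Hadhb, also chosen after its values were seen, was 0.70 ± 0.16 (SD, n = 5) in WT naive and -0.23 ± 0.31 (SD, n = 5) in S55L naive hearts without overlap, and 0.23 ± 0.48 (SD, n = 4) in WT PP and -0.27 ± 0.64 (SD, n = 4) in S55L PP hearts with overlap. The 2 genes are divergent neighbours on chromosome 5, and in RefSeq on GRCm38.p6 their start sites are 273 bases apart. Promoter windows of 300 bases, from 250 before to 50 after the start site, were found there for 25 of the 30 genes, and not for Lpl, Cpt1b, Crat, Acaa2 and Decr1. The windows of Hadha and Hadhb share 228 bases. The 250 bases before each start site are printed 5′ to 3′ on the strand of the gene, for Hadha (chr5:30154981-30155230, minus strand) and Hadhb (chr5:30155003-30155252, plus strand) because the pair shares its promoter region and both fell, for Cpt1a (chr19:3323051-3323300, plus strand) as the gene that rose in both states, and for Etfdh (chr3:79628768-79629017, minus strand) and Echs1 (chr7:140116422-140116671, minus strand) as genes that fell and hold a searched motif. Acadm, Acadvl and Cd36 also fell and hold a searched motif, and their sequences are not printed. Capitals mark the motif matches, and Hadha and Hadhb hold none.
Hadha: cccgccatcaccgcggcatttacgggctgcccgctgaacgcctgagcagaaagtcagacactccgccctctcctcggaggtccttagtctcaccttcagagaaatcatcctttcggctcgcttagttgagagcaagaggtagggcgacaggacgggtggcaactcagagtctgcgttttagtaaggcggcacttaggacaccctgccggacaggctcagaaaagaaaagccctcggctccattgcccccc
Hadhb: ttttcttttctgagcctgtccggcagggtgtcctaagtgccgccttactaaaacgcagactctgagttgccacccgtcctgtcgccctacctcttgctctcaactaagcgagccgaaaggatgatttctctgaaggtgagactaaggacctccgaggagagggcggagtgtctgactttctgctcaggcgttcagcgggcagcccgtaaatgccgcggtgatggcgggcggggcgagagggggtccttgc
Cpt1a: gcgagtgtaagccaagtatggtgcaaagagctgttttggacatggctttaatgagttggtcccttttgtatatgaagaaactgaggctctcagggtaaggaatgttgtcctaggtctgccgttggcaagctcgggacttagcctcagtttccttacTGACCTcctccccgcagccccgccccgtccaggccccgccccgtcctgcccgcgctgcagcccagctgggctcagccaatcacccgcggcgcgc
Etfdh: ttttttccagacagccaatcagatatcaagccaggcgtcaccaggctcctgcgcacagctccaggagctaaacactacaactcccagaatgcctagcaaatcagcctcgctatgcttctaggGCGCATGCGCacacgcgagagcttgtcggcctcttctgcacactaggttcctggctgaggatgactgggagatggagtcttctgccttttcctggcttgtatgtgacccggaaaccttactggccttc
Echs1: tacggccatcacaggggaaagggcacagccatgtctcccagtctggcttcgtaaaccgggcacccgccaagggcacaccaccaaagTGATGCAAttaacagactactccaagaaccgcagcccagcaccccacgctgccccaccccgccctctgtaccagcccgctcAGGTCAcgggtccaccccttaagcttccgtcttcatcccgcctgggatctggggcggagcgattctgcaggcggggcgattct

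Motifs were searched in the 300-base windows on both strands. The direct repeat bound by PPAR with RXR, a repeat of AGGTCA with a single base of any kind between the copies, was in 0 of the 25 windows and in those of 0.048% of 27025 RefSeq genes, and the ERR site (TNAAGGTCA) was in 0 of 25 against 1.43% of genes. The nuclear receptor half-site AGGTCA, which lies inside both of these motifs, was in 5 of 25 (Acadm, Acadvl, Cd36, Cpt1a and Echs1) against 18.1% of genes. The C/EBP-ATF site TGATGCAA was in 1 of 25 (Echs1) against 1.03%, and the NRF1 site, whose letters stand in capitals in the Etfdh sequence, was in 1 of 25 (Etfdh) against 1.07%. A match describes letters in this window and is not a measured binding site.

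Hadh, the dehydrogenase for medium and short chains, was 571 ± 60.5 CPM (SD, n = 5) in WT naive and 464 ± 71.2 CPM (SD, n = 5) in S55L naive hearts, a log2 difference of -0.30 (SE 0.14) that did not pass (adjusted p 0.088). It passed without WT naive 1 (-0.36) or S55L naive 4 (-0.38). In PP hearts it measured 481, 601, 621.5 and 617 CPM in WT and 299.6, 417.5, 457 and 354.5 CPM in S55L, without overlap, a difference of -0.60 (SE 0.16, adjusted p 0.0044). WT PP 1 and S55L PP 1, both of code letter A, were the lowest of their groups. Echs1, the short-chain hydratase, fell by 0.70 (SE 0.13, adjusted p 0.00012) and by 0.56 (SE 0.15, adjusted p 0.0045).

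Acaa2, the mitochondrial 3-ketoacyl-CoA thiolase, measured 1266, 1123, 1186, 1104 and 929 CPM in WT naive and 293, 288, 356, 534.5 and 504 CPM in S55L naive hearts. The PP values were 936, 802, 1023 and 1176 CPM in WT and 365, 338, 299 and 458 CPM in S55L. The highest S55L value lay well under the lowest WT value in both states. The difference was -1.51 (SE 0.17, adjusted p 8.66e-08) in naive and -1.43 (SE 0.19, adjusted p 1.78e-06) in PP hearts.

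Transcripts of the auxiliary enzymes that let unsaturated chains enter the cycle all fell. Eci1, an enoyl-CoA isomerase of mitochondria, averaged 303 ± 48.4 CPM (SD, n = 5) in S55L naive against 643 ± 25.3 CPM (SD, n = 5) in WT naive hearts, and 249.7 ± 35.2 CPM (SD, n = 4) in S55L PP against 558 ± 101 CPM (SD, n = 4) in WT PP hearts. Its differences were -1.08 (SE 0.14, adjusted p 6.60e-07) and -1.16 (SE 0.16, adjusted p 2.12e-06), without overlap in either state. Eci2, an isomerase of mitochondria and peroxisomes, fell by 0.78 (SE 0.17, adjusted p 0.00059) and by 0.61 (SE 0.19, adjusted p 0.016), and Decr1, the dienoyl-CoA reductase, fell by 0.75 (SE 0.16, adjusted p 0.00041) and by 0.57 (SE 0.18, adjusted p 0.015). The PP groups of both overlapped, and both PP calls were lost without WT PP 5 (Eci2 -0.45, Decr1 -0.44) or S55L PP 3 (Eci2 -0.55, Decr1 -0.48), and that of Eci2 also without S55L PP 4 (-0.49). Ech1, the dienoyl-CoA isomerase from the wider list, was 645 ± 93.9 CPM (SD, n = 5) in S55L naive and 2235 ± 233.5 CPM (SD, n = 5) in WT naive hearts (log2 difference -1.79, adjusted p 2.62e-10).

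All 3 genes of electron transfer from the dehydrogenases to ubiquinone had lower transcript levels. Etfdh, the membrane oxidoreductase, measured 691, 463, 422, 451 and 354.3 CPM in WT naive and 228.5, 217, 194, 272 and 299 CPM in S55L naive hearts. The PP values were 442, 358, 446 and 567 CPM in WT and 242, 234, 204 and 322 CPM in S55L. The genotypes did not overlap in either state, with WT naive 1 the highest library. The difference was -0.98 (SE 0.17, adjusted p 5.15e-05) in naive and -0.86 (SE 0.19, adjusted p 0.0011) in PP hearts. The subunits of the electron transfer flavoprotein followed, Etfa with -0.81 (SE 0.15, adjusted p 0.00011) and -0.79 (SE 0.17, adjusted p 0.00068), and Etfb with -1.003 (SE 0.15, adjusted p 3.18e-06) and -1.05 (SE 0.16, adjusted p 1.20e-05).

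The peroxisomal genes of the set gave no call in the reported fit. Ehhadh, the peroxisomal bifunctional enzyme, was read at 3.09, 0.82, 2.34, 1.15 and 0.49 CPM in WT naive, 1.81, 1.67, 1.21 and 2.15 CPM in WT PP, 1.25, 0.36, 0.67, 0.57 and 0 CPM in S55L naive and 1.12, 0.67, 1.08 and 1.25 CPM in S55L PP hearts. These are 0 to 6 reads per library, under the filter. Fitted without the filter, its differences were -1.32 (SE 0.66, adjusted p 0.17) in naive and -0.70 (SE 0.66, adjusted p 0.59) in PP hearts, so no difference was detectable at this depth. Acaa1a, the peroxisomal thiolase, was not called, with -0.27 (SE 0.20) and -0.48 (SE 0.23, adjusted p 0.11), and its near-identical neighbour Acaa1b makes its reads uncertain. With the number of the column-name code as a term, Acaa1a was called lower in PP hearts (-1.261, SE 0.431, adjusted p 0.0431 by edgeR). With all deposited columns it was called lower there too (-0.512, SE 0.201, adjusted p 0.0446 by edgeR). Of 12 tested genes in the wider peroxisomal list, 5 fell and 2 rose in naive and 3 fell in PP hearts, where 43.5% and 31.5% of all genes were called. Log2 differences over these 12 genes ran from -0.876 to 0.738 in naive and from -0.911 to 0.569 in PP hearts. Among those that fell, Abcd3, a peroxisomal fatty acid transporter, fell by 0.50 and by 0.37, Scp2 by 0.49 and by 0.56, and Phyh by 0.44 and by 0.66 on the log2 scale.

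Genes outside the 30 were read from lists of the same pathway, in comparisons that called 43.5% of all genes in naive (21.6% lower) and 31.5% in PP hearts (15.2% lower). Of 11 tested further genes of uptake, activation and the carnitine shuttle, 6 were lower and 2 higher in naive hearts and 5 lower and 2 higher in PP hearts. Of 7 further mitochondrial oxidation genes, 5 were lower and 1 higher in naive and 6 lower and 1 higher in PP hearts, the higher one being Acot2, an acyl-CoA thioesterase (0.89 and 0.94), whose near-identical paralogues make its reads uncertain. Of 13 regulators of oxidation genes, 9 were lower in naive and 8 in PP hearts and none was higher. Ppara, the nuclear receptor that drives many of these genes, averaged 8.99 ± 2.998 CPM (SD, n = 5) in S55L naive against 33.8 ± 10.4 CPM (SD, n = 5) in WT naive hearts, a log2 difference of -1.92 (adjusted p 4.53e-05) in naive and -1.74 (adjusted p 0.00048) in PP hearts. Its partner Rxra fell by 0.76 and by 0.66, and Ppargc1a, a coactivator of mitochondrial genes, fell by 1.06 in PP hearts. Lpin1, a phosphatase and coactivator, fell by 1.14 in PP hearts. Naive differences of Ppargc1a and Lpin1 are not given here, so no fall particular to PP hearts is shown. The genotype-by-state term given below was called for 0% of all genes. Of 9 known PPAR targets outside oxidation, 4 were lower and 1 higher in naive and 3 lower and 2 higher in PP hearts. Angptl4, a secreted inhibitor of lipoprotein lipase, was higher by 2.33 on the log2 scale in S55L than in WT PP hearts. It stood at 6.73 ± 6.03 CPM in WT and 35.7 ± 18.8 CPM in S55L (SD, n = 4 each, with overlap), and was not called in naive hearts (0.48, SE 0.45). WT naive hearts held 19.2 ± 8.95 CPM (SD, n = 5), a PP minus naive difference of -1.46 in WT (SE 0.58, adjusted p 0.71 by edgeR). The PP minus naive differences of this list in S55L hearts ran from -0.677 to 0.392. Plin2, a lipid droplet coat protein, rose by 0.94 and by 0.80, and Plin5, the droplet protein of oxidative tissue, fell by 0.67 and by 0.83.

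Genotype and the number in the column-name code can hardly be told apart here: with that number as a term in the fit, 14 of the 28 genes were called in naive hearts, all lower, and 10 in PP hearts, 9 of them lower, while the median difference of the 28 was -0.83 and -0.68, and Cpt1a in naive hearts stood at 0.91 with a wider SE of 0.38 (adjusted p 0.082). Scaling to total counts moved the median of all genes to 0.24 in naive and 0.27 in PP hearts and that of the 28 genes to -0.56 and -0.33, and called 33.6% of all genes higher and 12.4% lower in naive and 28.9% higher and 8.18% lower in PP hearts, where 12 of the 28 were called, 10 of them lower.

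No gene of the set passed the test between PP and naive hearts of either genotype. None of the 28 was called between WT PP and WT naive hearts, where 0.0167% of all genes were called, and 4 each had an unadjusted p below 0.05 with edgeR, with DESeq2 and with limma voom, where 756 of 11945 genes did with edgeR. Of the 28, 24 had a log2 difference below 0, with a median of -0.13 against -0.005 for all genes. Mlycd had the lowest unadjusted p among them: its 4 WT PP values of 84.3 to 121 CPM lay below the 5 WT naive values of 128 to 158 CPM, a separation that 0.979% of all genes showed in this direction. Its difference was -0.50 (SE 0.17, unadjusted p 0.0056, adjusted p 0.61 by edgeR). Slc27a1 stood at -0.56 (SE 0.22, 95% interval -0.99 to -0.14, adjusted p 0.67), with its groups overlapping and WT PP 5 the lowest WT library. Hadha stood at -0.485 (SE 0.215, adjusted p 0.74) and Cpt1a at -0.44 (SE 0.20, adjusted p 0.76), both with overlap.

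Lpl differed by -0.08 between WT PP and WT naive hearts, with a 95% interval of -0.40 to 0.24, and Cd36 by -0.29, with an interval of -0.59 to 0.01. Of the wider lists, 1 gene was called in WT, Ucp3, a mitochondrial carrier and PPAR target, which fell by 2.14 on the log2 scale, from 56.7 ± 13.4 CPM (SD, n = 5) to 12.7 ± 2.28 CPM (SD, n = 4).

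In S55L hearts none of the 28 genes was called between PP and naive, 0% of all genes were, and the members with an unadjusted p below 0.05 numbered 0 with edgeR, 0 with DESeq2 and 1 with limma voom, where 747 of 11945 genes did with edgeR. The median difference was -0.01, and the fitted values ran from -0.34 (Acaa1a) to 0.71 (Acads, SE 0.47). The Acads value rests on S55L PP 1, which was read at 99.2 CPM where the other 3 PP libraries stood at 22.7 to 32.1 CPM, and without it the difference was -0.064 (SE 0.39).

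The genotype-by-state term, which asks whether the postpartum difference is itself different in S55L hearts, was called for none of the 28 genes and for 0% of all genes. Unadjusted p was below 0.05 for 2 genes with edgeR and for 1 each with DESeq2 and limma voom, and for 444 of all 11945 genes with edgeR. With edgeR these were Slc27a1 (0.67, SE 0.32, unadjusted p 0.045) and Mlycd (0.49, SE 0.23, unadjusted p 0.046), each with an adjusted p of 0.9965. Both were lower after delivery in the fitted WT means and near their naive level in S55L hearts, which were already low: Slc27a1 averaged 37.4 ± 6.51 and 25.75 ± 7.997 CPM in WT naive and PP and 9.07 ± 1.63 and 9.84 ± 2.37 CPM in S55L naive and PP hearts (SD, n = 5 naive and n = 4 PP). For Acads the term was 1.13 with a 95% interval of -0.16 to 2.42, and for Lpl it was -0.015 with an interval of -0.47 to 0.44.

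**Figure D4:**
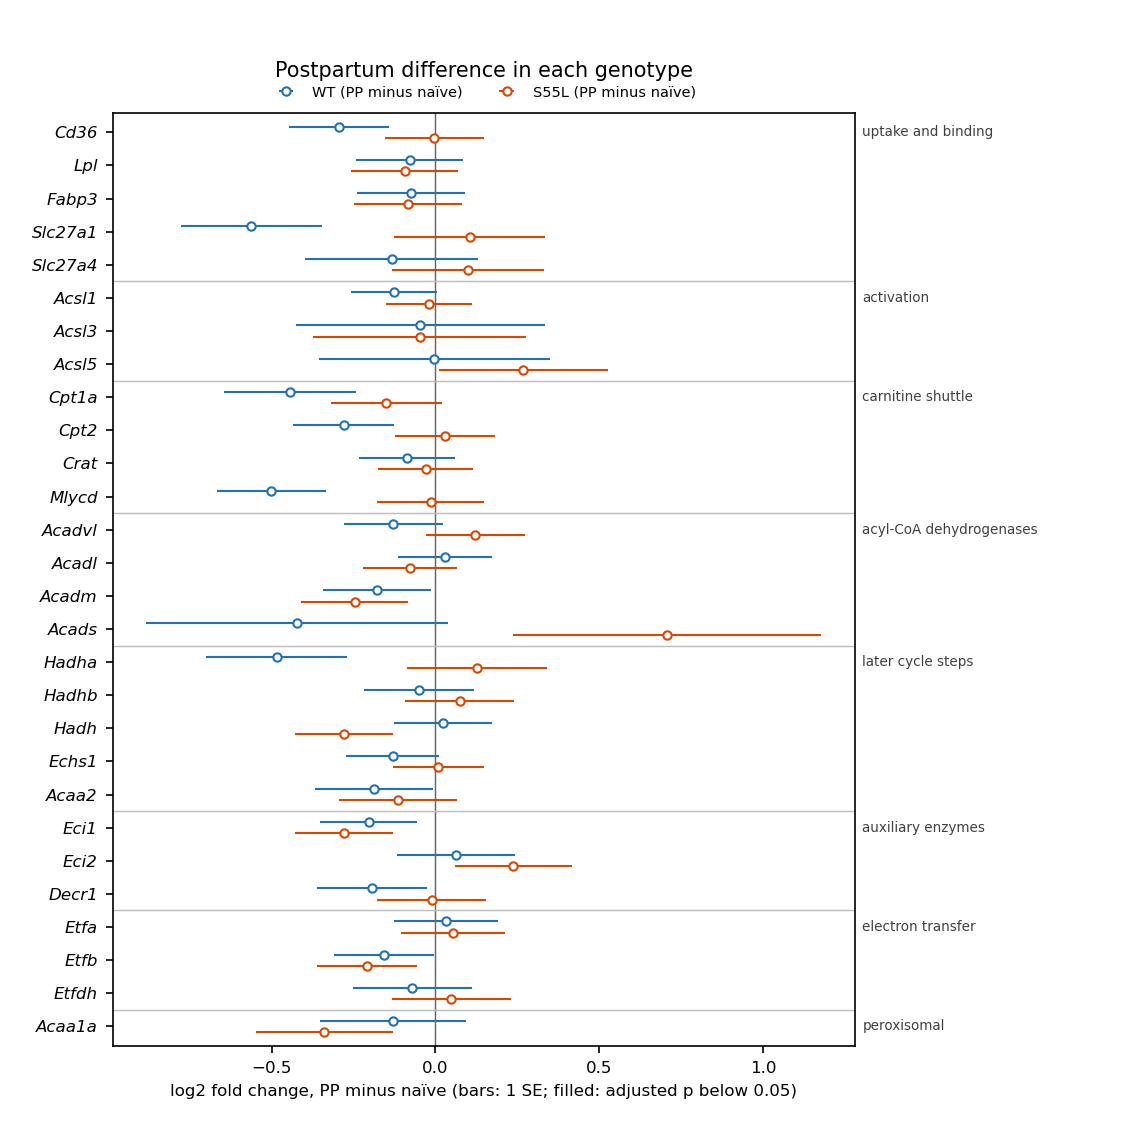
Fitted log2 difference (PP minus naive) of the 28 genes in WT and in S55L hearts, with bars of 1 standard error. No point is filled, because no gene was called, and most WT points lie slightly left of 0 around a median of -0.13 while the S55L points scatter around -0.01.

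The EH301 diet was compared with the control diet in S55L PP hearts, to ask whether the supplement changes expression in the mutant at delivery. None of the 27 tested genes was called, 0% of all 10335 genes were, and no gene of the set had an unadjusted p below 0.05 with edgeR, DESeq2 or limma voom. The median log2 difference was -0.07 against 0.02 for all genes, and no gene of the set had diet groups that did not overlap, where 0.929% of all genes lay wholly above and 0.571% wholly below the control diet. Standard errors ran from 0.21 to 0.49, with a median of 0.32. In simulated data 24% of 2-fold and 83% of 4-fold changes were recovered at this size, so moderate differences could be missed.

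Lpl was read at 556, 2297, 1907 and 1187 CPM on the control diet and at 1547, 719, 1817 and 1378 CPM on EH301. The ranges overlapped almost entirely, and the difference was -0.12 (SE 0.43, 95% interval -0.98 to 0.73). Cd36 was read at 280.2, 267, 239 and 267 CPM on the control diet and at 386, 166, 280.2 and 234 CPM on EH301, with both the highest and the lowest library on EH301 (difference 0.02, 95% interval -0.54 to 0.58). Slc27a1 was steadier, at 11.1, 15.85, 13.97 and 12.4 CPM against 12.8, 15.6, 14.97 and 14.9 CPM (difference 0.08, 95% interval -0.38 to 0.53).

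Acsl1 measured 111, 159.7, 144 and 152 CPM on the control diet and 252, 79.8, 161 and 127 CPM on EH301, a difference of 0.13 (95% interval -0.51 to 0.76). Cpt1a measured 33.4, 24.2, 29.6 and 27.75 CPM against 40.8, 33.1, 33.1 and 22.7 CPM, a difference of 0.20 (95% interval -0.27 to 0.67), with EH301 10 the lowest library. Mlycd measured 68.95, 107, 107 and 133 CPM against 76.8, 112, 108 and 99.4 CPM, a difference of -0.09 (95% interval -0.58 to 0.40). The intervals of these shuttle and activation genes all include 0. Acadm measured 55.6, 83.05, 85.8 and 97.5 CPM against 166, 54.5, 96.5 and 83.05 CPM, a difference of 0.30 (95% interval -0.33 to 0.94).

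Hadha measured 1815, 1041, 958 and 1451 CPM on the control diet and 1294, 1985, 1043 and 1462 CPM on EH301, a difference of 0.14 (95% interval -0.50 to 0.77). Acaa2 measured 1334, 604, 463 and 803 CPM against 663.5, 981, 483 and 694.5 CPM, a difference of -0.18 (95% interval -0.90 to 0.54). In both genes the top library of each diet was the one with the fewest reads. Hadhb had the largest fitted difference of the set, -0.61 (SE 0.36, 95% interval -1.32 to 0.11), and it rests on control library 1, at 213.5 CPM where the other 3 stood at 65.9 to 79.9 CPM. Without that library it was -0.075 (SE 0.20). Etfdh measured 20.02, 22.65, 20.96 and 30.005 CPM against 37.4, 12.65, 24.8 and 13.4 CPM, a difference of -0.07 (95% interval -0.73 to 0.59). Ehhadh was under the filter at 0, 1.51, 1.33 and 1.88 CPM against 2.77, 0.97, 2.55 and 1.12 CPM. Etfb was listed at 0 in all 8 libraries, where the postpartum table held 31281 reads of it. GENCODE M21 places Gm45233 over 53.0% of the exon bases of Etfb on the same strand. Gm45233 had 0 counts in both tables, and why Etfb differed between them was not tested.

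Control library 1 and EH301 library 8 had the fewest reads, 466651 and 1141997, and stood apart from the other 6 together. Both lay above all 6 for Slc27a4, Crat, Acads, Hadha, Echs1, Acaa2, Decr1 and Acaa1a, and below all 6 for Lpl, Acsl1, Acsl5, Acadl, Acadm, Hadh and Ehhadh. Over the 8 libraries, cardiomyocyte markers summed to 58250 to 79160 CPM on the control diet and 58250 to 83850 CPM on EH301, and macrophage markers to 1867 to 4146 CPM and 1246 to 4906 CPM. With libraries under 1200000 reads left out, which removes both, again none of the 27 genes was called. The 2 tables were counted against gene sets of different size and were scaled apart, so levels were not compared between them.

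**Figure D5:**
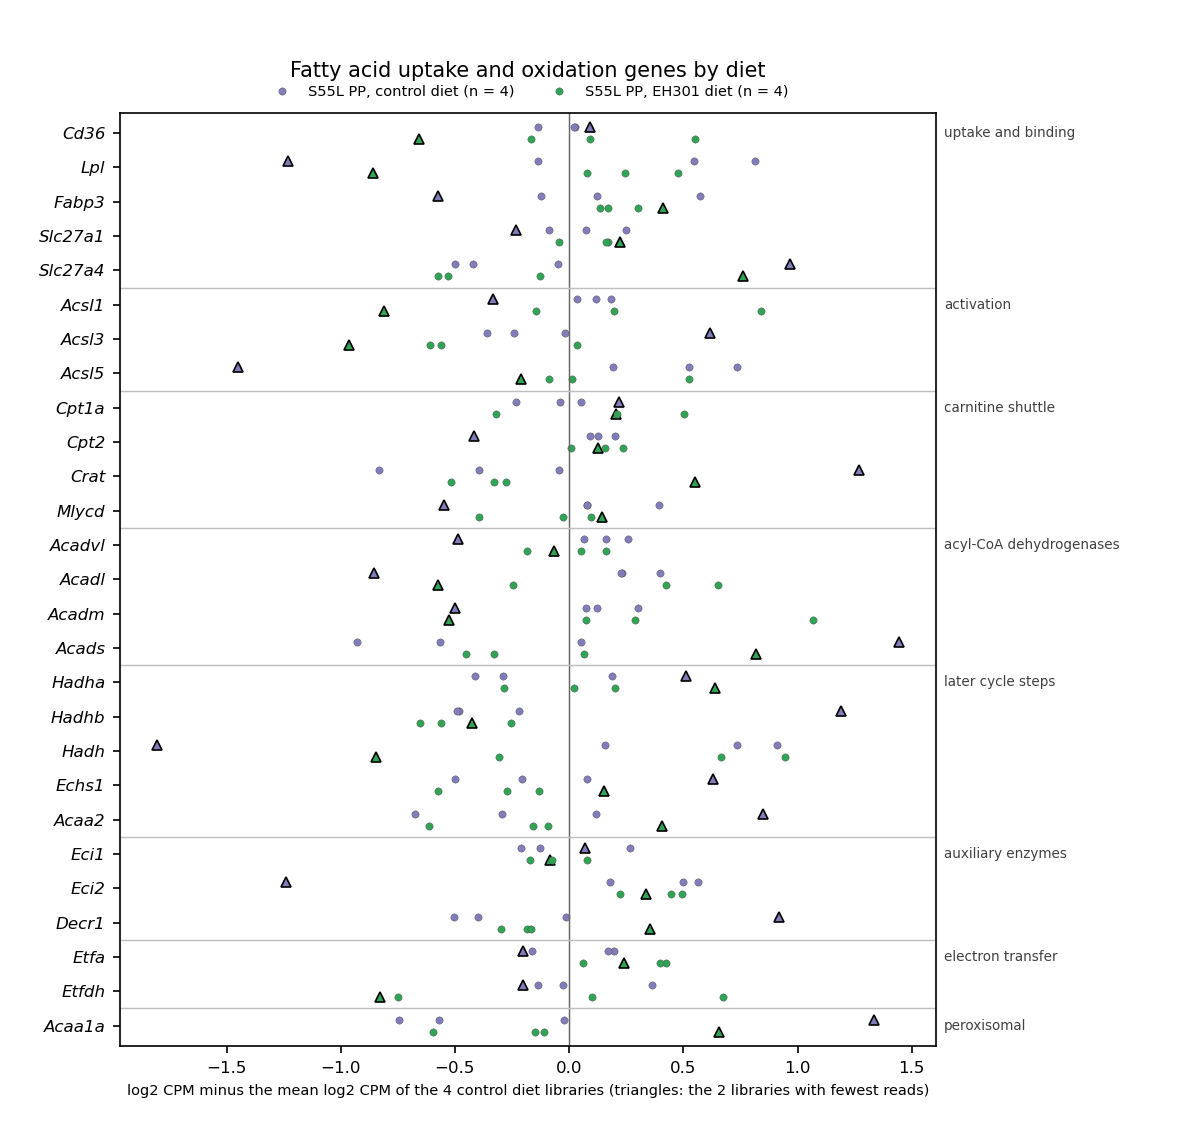
Level of the 27 tested genes in each library of the diet table, as log2 CPM minus the control-diet mean, with one point per library coloured by diet and triangles for the 2 libraries with the fewest reads. Control and EH301 points overlap for every gene, and the triangles lie at the edge of the points for Lpl, Acads, Hadha and Hadh among others.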

How the data were processed

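RNA from mouse heart (500 ng of total RNA, Qiagen RNeasy Mini) was made into QuantSeq 3′ FWD libraries, per the labels' protocols. The authors deposited raw read counts per gene as made by HTSeq 0.6.1 after Trimmomatic 0.39 and STAR 2.7.0f, with GRCm39.p6 named as the build, per the submitters' processing notes. The strand setting, counting mode and annotation release are not given in the sources used here. Reads on genes were 57.5 to 69.2% of all reads, the rest being HTSeq summary lines, which stayed out of library sizes and tests, and 0 columns lacked a sample.

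Columns were grouped by the labels, and identical columns were used once or, under both diets, left out. Each table was fitted on its own with edgeR 4.0.16 in R 4.3.3: filterByExpr, TMM scaling, 1 mean per group, robust quasi-likelihood test, Benjamini-Hochberg adjustment over all genes tested, threshold 0.05. This kept 11945 genes in the postpartum table and 10335 in the diet table. CPM values use TMM library sizes, a log2 difference is the fitted one, and SE is its size divided by the square root of F. Biological coefficients of variation were 0.199 and 0.299.

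All 30 genes could be named, with values per library for Cd36, Lpl, Slc27a1, Acsl1, Cpt1a, Cpt1b, Acadm, Hadha, Acaa2, Etfdh, Ehhadh and Mlycd and for up to 3 called genes per direction and comparison with the lowest adjusted p. From the wider lists up to 5 called genes per list and comparison were named. Acads, Hadh and other values outside this rule were chosen after they were seen. The 30 genes and all lists were chosen with earlier results of these data known. Overlapping genes were read from GENCODE M21, and promoter windows from RefSeq (GRCm38.p6).

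Same-numbered libraries of S55L PP and WT PP deviated together (r 0.119 to 0.333 over genes in 4 pairs), so the number may pair them, from the data and not from the labels. The reported PP differences, SEs and calls come from the fit without a pairing term, and the replicate number entered only as an alternative. The 5 naive pairs gave -0.102 to 0.08 and were not treated as paired. Alternatives were other scalings (DESeq2 size factors, total counts), no filter, DESeq2 1.42.0, limma voom (limma 3.58.1), mitochondrially encoded genes removed, counts thinned to the smallest library, each library left out, all deposited columns, a replicate block, the number of the column-name code as a term and only the groups compared. Leaving out the libraries of code letter A, or giving that letter a term, was added after the data were seen. On simulated counts for 11945 genes, 62% of 2-fold and 95% of 4-fold changes were recovered in the naive genotype comparison, and on 10335 genes 24% and 83% in the diet comparison.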

Additional observations from a re-analysis of the deposited data

Results flagged for a closer look

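In 12 of 173 combinations of a gene and a group of 4 or 5 libraries, 1 library lay far from the rest of its group by Dixon's criterion. For normally distributed values chance alone would give this in about 1 in 20. The genes share the same libraries, so the 173 combinations are not independent. Of the 12 cases, 3 were in WT naive 1. Cd36 stood at 834.98 CPM where the other 4 libraries stood at 517.04 to 574.8 CPM. Acads stood at 236.43 CPM against 88.9 to 113 CPM. Cpt1b stood at 0.5151 CPM, a single read, against 0 in the others. WT naive 1 has the letter A in its column-name code.

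S55L PP 1, also of letter A, gave 3 more. Acadvl stood there at 1007.8 CPM against 602 to 649 CPM, Acads at 99.218 CPM against 22.7 to 32.1 CPM, and Decr1 at 310.79 CPM against 188.5 to 206 CPM. Hadh stood at 480.96 CPM in WT PP 1, the third letter A library, against 601 to 621.5 CPM. Outside letter A, Eci2 stood at 251.03 CPM in WT PP 5 against 169 to 176 CPM, and Acadm at 326.42 CPM in S55L PP 5 against 517.3 to 557 CPM.

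In the diet table the 3 cases fell in the 2 libraries with the fewest reads. Hadhb stood at 213.52 CPM in control library 1 against 65.9 to 79.9 CPM. In EH301 library 8, Crat stood at 313.29 CPM against 149 to 176 CPM and Decr1 at 444.64 CPM against 282.5 to 309 CPM.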

How the results depend on the processing

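Between S55L PP and WT PP hearts, 12 genes of the set were called (2 higher, 10 lower) with total counts scaling and 10 (1 higher, 9 lower) with the number of the column-name code as a term, against 22 as reported. The median difference of the 28 genes was -0.33 and -0.68 under these settings, against -0.61 as reported. With the number as a term Acsl5 stood at 1.62 (SE 0.594, adjusted p 0.0579) and the difference of Eci2 turned to 0.042 (SE 0.334, adjusted p 0.949). Acaa1a, not called as reported, was among the 10 called with that term (-1.261, SE 0.431, adjusted p 0.0431). The cause was not tested. Over the remaining settings the count ran up to 23, and leaving out 1 library gave 17 to 22. In naive hearts the settings gave 14 to 23 and leaving out 1 library 21 to 22. With the replicate number as a block, 22 (1 higher, 21 lower) were called in naive and 23 (2 higher, 21 lower) in PP hearts. The block added Acads in the PP comparison, and Hadh in the naive comparison, where the numbers do not pair the libraries. WT PP against WT naive, S55L PP against S55L naive, the genotype-by-state term and the diet comparison gave 0 calls in the set under every setting run. Lpl, Slc27a1, Acsl1, Acadvl, Hadha, Acaa2 and Eci1 were called lower in both genotype comparisons under every setting. Over all genes the fit with that number called 2873 genes in naive hearts, against 5192, and 2108 in PP hearts, against 3767. Without the filter, 21 genes were called between WT PP and WT naive hearts, against 2, and 37 between S55L PP and S55L naive hearts, against 0. Depth limits Ehhadh, at 0 to 6 reads per library of the postpartum table, and control library 1 of the diet table held 466651 reads on genes.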
